A study of Mus musculus with 65 samples.

Results

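Sox1, Sox2, Sox3, Sox21, Sox4 and Sox11, the neural SoxB and SoxC genes, are described here across all 25 groups of a bulk RNA-seq series. The 6 genes were chosen by name, not by their values, out of 25239 genes in the table. Each of the 6 passed the filter on low values (a mean of at least 10 normalised reads over all libraries) that left 13964 genes for testing. All 6 also had reads in every library of days 5 and 6, which by itself does not test their label.

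The series followed mouse HM1 embryonic stem cells as they were differentiated to ventral spinal cord progenitors and sorted by crosslinked and transcription factor-sorted RNA-seq (CaTS-RNA-seq), in which fixed cells are stained inside the cell and sorted before RNA is extracted. From day 3 onwards every culture received retinoic acid together with 0, 10, 100 or 500 nM SAG, an agonist of Smoothened that switches on Hedgehog signalling. The 65 libraries comprised 3 of neuromesodermal progenitors (NMPs) from day 3 at 0 nM SAG, and 16, 24 and 22 libraries of days 4, 5 and 6, each sorted as p0-1 (17 libraries in all), p2 (15), pMN (15) or p3 (15), the progenitor types that lie along the ventral neural tube from its more dorsal to its most ventral part. The p0-1 cells came from 0 and 10 nM SAG, p2 from 10 and 100 nM, and pMN and p3 from 100 and 500 nM. All groups came from 1 cell line, and groups held 1 (2 groups), 2 (6 groups) or 3 libraries (17 groups). Progenitors were gated as SOX2-positive and separated by their staining for OLIG2, NKX2.2, NKX6.1 and PAX6. Thus SOX2 protein was part of the selection and Sox2 RNA is read below with that in mind. The gate used for the NMPs was not given in the sources used here.

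Libraries held 7615114 to 13484815 reads assigned to genes, and 9718 to 15963 genes were detected in each. No pair of libraries held identical values. On days 5 and 6, RNA of the sorted factors differed in the direction of the labels in the pairs given here. Nkx2-2 was higher in p3 than in p2 (log2 difference 7.58, SE 0.63), Olig2 higher in pMN than in p0-1 (11.12, SE 0.81) and Pax6 lower in p3 than in p2 (-4.86, SE 0.4). Olig2 RNA was not confined to pMN (1368 to 6214, median 3295). It reached 1741 in p3 (median 769.4) and 1452 in p2 (median 148.1), so these types overlapped with pMN. Values are the deposited normalised reads, that is, each library's reads divided by a size factor, so that 1 read was worth 0.717 to 1.359. A difference is a log2 change fitted by limma to log2(normalised reads + 1) with its standard error (SE), and it was called when the Benjamini-Hochberg adjusted p over all 13964 genes was under 0.01 and the change was over 2-fold.

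SOX proteins bind DNA through a high mobility group (HMG) box. The SoxB1 genes Sox1, Sox2 and Sox3 encode transcriptional activators that overlap in function and hold neural cells in the progenitor state. Sox21, a SoxB2 gene, encodes a repressor that binds the same kind of site and opposes SoxB1 activity, and the SoxC genes Sox4 and Sox11 act in progenitors that leave the cell cycle and in young neurons, where they activate neuronal genes.

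Each member is a gene of a single exon. On mm10, Sox1 lies at chr8:12395519-12399555 (plus strand), Sox2 at chr3:34649995-34652460 (plus), Sox3 at chrX:60891366-60893430 (minus), Sox21 at chr14:118233234-118237030 (minus), Sox4 at chr13:28948920-28953699 (minus) and Sox11 at chr12:27334268-27342718 (minus). Sox1 and Sox2 sit inside introns of the non-coding genes Sox1ot (chr8:12385771-12436732) and Sox2ot (chr3:34560381-34677993) on the same strand. The Sox21 exon overlaps an exon of LOC105245869 on the opposite strand, and since the use of strand in counting was not stated, reads of these 2 genes cannot be told apart where they overlap.

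The coding sequence at the start of the HMG box is shown because it carries both the family likeness and the split into SoxB and SoxC. The lines give the same 108 coding bases of each member from the GENCODE vM21 transcripts, 5′ to 3′, with capitals at the 67 positions where all 6 members have the same base.
Sox1: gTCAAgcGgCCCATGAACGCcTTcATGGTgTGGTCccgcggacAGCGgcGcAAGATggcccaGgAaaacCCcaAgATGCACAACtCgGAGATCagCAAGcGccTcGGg
Sox2: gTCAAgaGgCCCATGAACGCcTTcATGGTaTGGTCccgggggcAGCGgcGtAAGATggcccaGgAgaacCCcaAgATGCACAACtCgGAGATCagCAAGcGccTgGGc
Sox3: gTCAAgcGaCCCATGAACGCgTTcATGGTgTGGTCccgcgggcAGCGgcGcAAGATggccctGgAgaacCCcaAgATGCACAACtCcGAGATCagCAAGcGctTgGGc
Sox21: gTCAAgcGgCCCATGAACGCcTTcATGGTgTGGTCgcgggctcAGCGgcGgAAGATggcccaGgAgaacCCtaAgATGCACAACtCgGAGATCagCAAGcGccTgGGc
Sox4: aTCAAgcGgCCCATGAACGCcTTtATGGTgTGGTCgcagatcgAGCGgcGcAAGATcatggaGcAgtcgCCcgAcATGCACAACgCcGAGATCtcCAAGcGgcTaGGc
Sox11: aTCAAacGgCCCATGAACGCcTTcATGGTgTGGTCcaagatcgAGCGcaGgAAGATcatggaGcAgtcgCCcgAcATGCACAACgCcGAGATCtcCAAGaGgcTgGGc
Over a window of 228 bases that begins at the same place, any 2 SoxB members shared 87.3 to 89.9% of bases, Sox4 and Sox11 shared 89.0%, and a SoxB member and a SoxC member shared 67.5 to 72.4%. The longest identical run in the coding sequences was 48 bases between Sox4 and Sox11, 45 between Sox1 and Sox3 and 38 between Sox1 and Sox2. Read length was not given in the sources used here, so how far reads from such runs could be credited to the wrong member is unknown.

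Promoter sequence (the 250 bases before each start, RefSeq, GRCm38.p6) was matched for 5 of 6 members, and only Sox3 was unmatched. The letters CCAAT, on either strand, stood in 4 of these 5 windows, against 33.8% of 32851 promoters. The Sox4 window held 4 of them, a number reached by 0.84% of promoters, and those of Sox1, Sox2 and Sox11 held 1 each. The stretches are shown for the 2 members with a match that rose at day 4 (Sox1 and Sox2) and for the SoxC pair, written 5′ to 3′ along the gene with CCAAT or its reverse complement in capitals.
Sox1, chr8:12395269-12395306, plus strand: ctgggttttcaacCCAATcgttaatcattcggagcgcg
Sox2, chr3:34649929-34649973, plus strand: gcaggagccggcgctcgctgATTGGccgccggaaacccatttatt
Sox4, chr13:28953700-28953890, minus strand: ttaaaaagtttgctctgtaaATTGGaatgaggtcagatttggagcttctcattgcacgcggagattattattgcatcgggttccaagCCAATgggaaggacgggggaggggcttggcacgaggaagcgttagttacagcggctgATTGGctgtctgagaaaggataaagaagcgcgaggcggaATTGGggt
Sox11, chr12:27342754-27342798, minus strand: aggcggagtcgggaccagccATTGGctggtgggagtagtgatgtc
None of the 5 windows held ATGCAAAT (1.6% of promoters), TATAAA (12.4%) or AACAAT (9.42%). The E-box letters CANNTG stood in the Sox4 window 1 time and in the Sox11 window 2 times (66.2% of promoters held at least 1). These counts describe letters in a fixed window and no binding was measured.

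**Figure D1:**
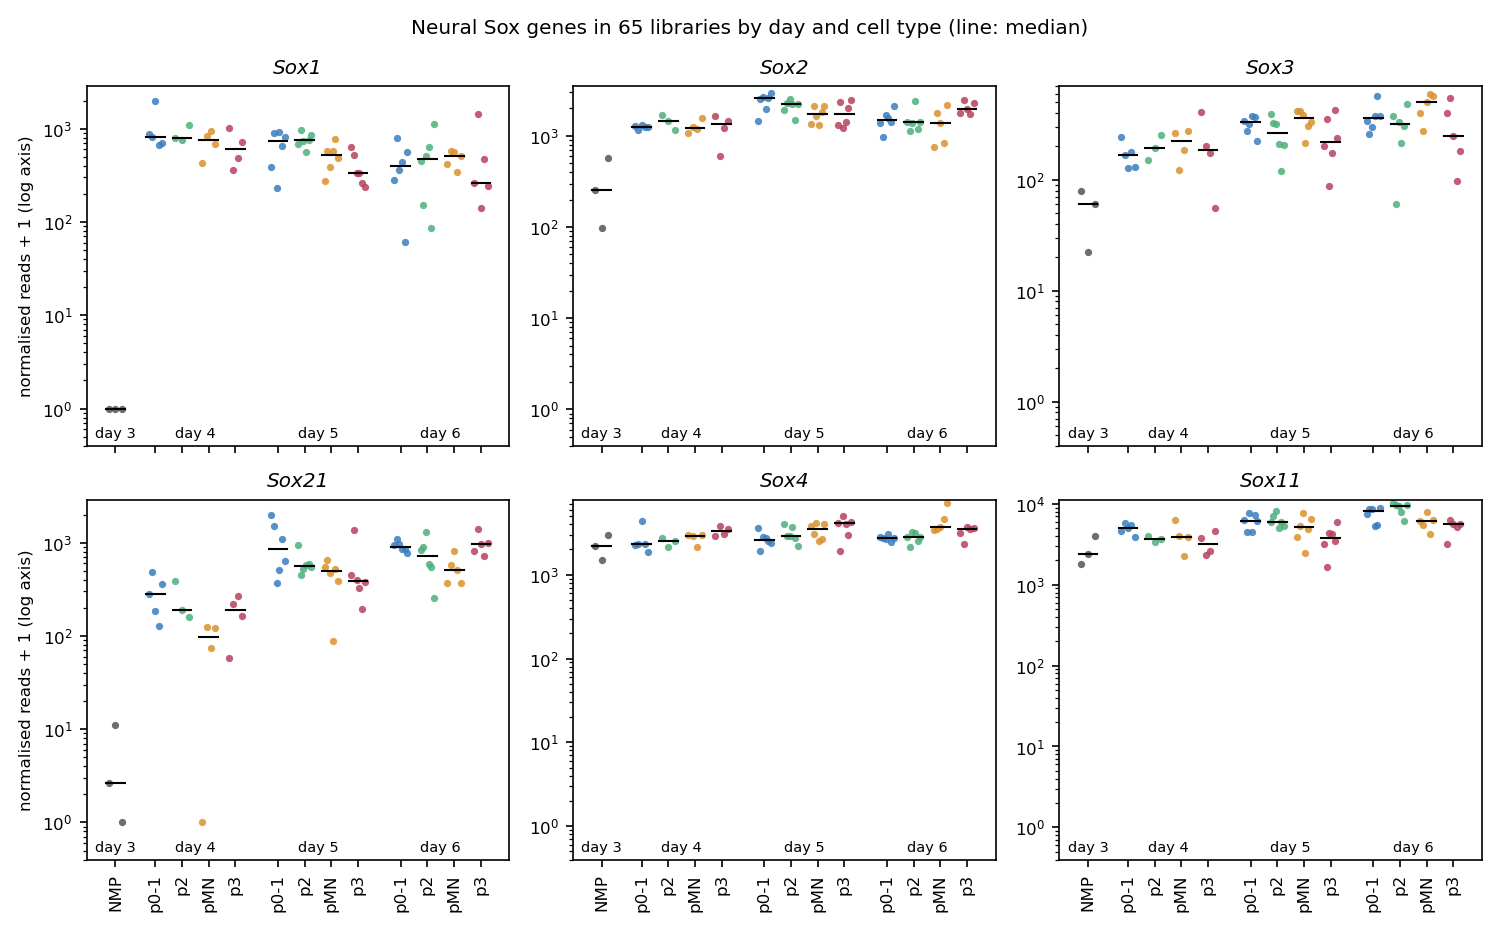
Normalised reads of the 6 members in every library, on a log10 axis of value + 1, with 1 panel for each gene. Points are libraries placed by day and cell type, and lines mark group medians. Sox1 is at 0 in all 3 NMP libraries and at 357.4 or above in all 16 libraries of day 4, whereas Sox4 is at 1504 or above and Sox11 at 1640 or above in every library.

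From day 3 to day 4 all 4 SoxB members rose, and neither SoxC member was called. Whether the SoxB and SoxC changes differed was not tested. Across all genes tested, 3.49% were called in this comparison. In bulk RNA, fewer cells of a type and less RNA per cell cannot be told apart. Day and medium differed between the 3 NMP libraries and the later ones. The medium just before day 3 held bFGF, CHIR99021 and DMH1 among other additives, and retinoic acid was given from day 3 onwards. The sort may have differed too, since the gate of the NMPs was not given. The parts of day, each additive and the sort cannot be told apart. SAG differed as well for 14 of the 16 libraries of day 4. The other two, p0-1 cells at 0 nM SAG like the NMPs, held 874.4 and 809 normalised reads of Sox1, 1291 and 1151 of Sox2, 241.9 and 168 of Sox3 and 283.4 and 486.7 of Sox21, each above all 3 NMP libraries.

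Sox1, an early marker of neural commitment, had 0 reads in each of the 3 NMP libraries. In the 16 libraries of day 4 it ran from 357.4 through a median of 775 to 1962 (mean 820.4 ± 365, SD, n = 16). The groups did not overlap. The adjusted p was 8.02e-19 (limma). Against a level of 3 reads a library in the NMPs, the day 4 mean of Sox1 was 248-fold higher and its lowest day 4 library 108-fold higher. That level allows for counting alone and is no firm bound. Libraries of a group could differ by more, as Sox21 had 0 reads in replicate 2 and 155 in replicate 3 of day 4 pMN at 100 nM SAG.

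Sox2 stood at 253.8, 95.64 and 577.5 in the NMP libraries. On day 4 it ran from 592.7 through 1255 to 1682 (mean 1285 ± 256.8, n = 16), so that the lowest library of day 4 lay just above the highest NMP library. The log2 change was 2.44 (SE 0.32, adjusted p = 8.32e-08, limma). Sox2 was thus already measured in NMPs in which Sox1 had no read.

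Sox3 stood at 77.71, 21.38 and 59.79 in NMPs. It ran from 54.39 through 181.2 to 406.8 on day 4, and the groups overlapped. Its log2 change was 2.03 (SE 0.48, adjusted p = 0.00349, limma), and this was the least secure of the calls. The adjusted p was 0.161 without NMP replicate 2 (log2 change 1.49) and 0.0132 without NMP replicate 3 (2.21), 0.0191 with edgeR, and 0.0311 when only the libraries of the groups compared were fitted.

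Sox21 stood at 1.653, 10.13 and 0 in NMPs. It ran from 0 through 174.5 to 486.7 on day 4, where 15 of 16 libraries lay above every NMP library and 1 (pMN at 100 nM SAG, replicate 2) held 0 reads. The log2 change was 5.36 (SE 0.68, adjusted p = 4.51e-08, limma).

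The SoxC genes were abundant before neural induction. Sox4 stood at 2196, 1504 and 2995 in NMPs and from 1853 through 2828 to 4414 on day 4 (log2 change 0.33, SE 0.22, adjusted p = 0.477). Sox11 stood at 1792, 2383 and 4005 in NMPs and from 2277 through 3942 to 6404 on day 4 (0.62, SE 0.26, adjusted p = 0.162, limma). In both cases the groups overlapped. The median log2 change of all genes tested was -0.40 in this comparison, against 2.24 over the 6 members, and the values above are not corrected for it.

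Markers of the earlier state fell at the same step. Of the 8 tested genes of a list for NMPs and mesoderm, 6 were lower and 0 higher on day 4, among them Cdx1 (log2 change -8.6, SE 0.71), Cdx2 (-6.81, SE 0.72) and Nkx1-2 (-6.17, SE 0.94). The summed level of its 11 genes was 3405 to 7150 in NMPs and 0 to 550.6 on day 4. Of the 5 tested pluripotency and epiblast genes, 3 were lower, among them Pou5f1 (-7.55, SE 0.99) and Zfp42 (-6.78, SE 0.86). Each of the calls named here was lost with DESeq2 (adjusted p 0.0103 for Pou5f1 and 0.393 to 0.671 for the others). Those of Cdx2, Nkx1-2 and Zfp42 were also lost with edgeR. None was lost when a single library was left out. The part of residual early cells in the Sox levels was not tested. Of the 2 tested neural crest genes and the 3 tested feeder fibroblast genes, 0 were called at this step, and Sox10, a defining neural crest gene, was at 0 in every library of days 5 and 6.

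**Figure D2:**
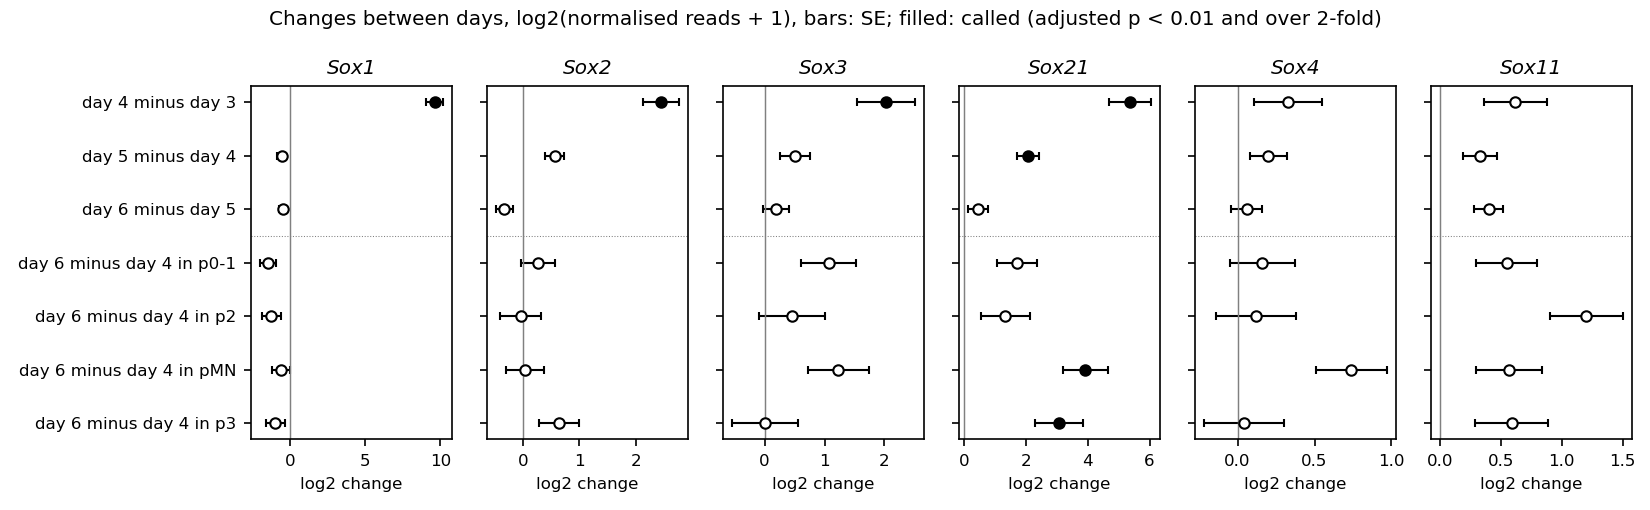
Fitted log2 changes of the 6 members between days (points) with their standard errors (bars), for day 4 against day 3, day 5 against day 4 and day 6 against day 5 above the dotted line and for day 6 against day 4 within each cell type below it, each panel on a scale of its own. Filled points are called. The Sox1 value at day 4 against day 3 (9.62) is set by the pseudocount, because all 3 NMP libraries are at 0.

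From day 4 to day 6 over all cell types, Sox21 had the largest fitted log2 change of the members, 2.51. The change of Sox1 was the next largest and ran downwards, -1.08. These 2 values are given without a test. Sox21 went from a median of 174.5 on day 4 to 520.4 on day 5 (range 86.88 to 1963, n = 24) and 821.9 on day 6 (256.2 to 1388, n = 22). The log2 change was 2.07 from day 4 to day 5 (SE 0.36, adjusted p = 3.6e-05, limma) and 0.44 from day 5 to day 6 (SE 0.32, adjusted p = 0.531). Sox21 was the 1 member called between days 4 and 5, where 4.3% of genes were called.

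Sox2 ran from 1222 through 2070 to 2966 on day 5 and from 759.1 through 1508 to 2480 on day 6. Its change from day 4 to day 5 was 0.56 (SE 0.17, adjusted p = 0.0202) and from day 5 to day 6 -0.33 (SE 0.15, adjusted p = 0.23). Sox1 ran from 228.8 through 572.4 to 969.5 on day 5 and from 59.4 through 443 to 1453 on day 6, with changes of -0.57 (SE 0.3, adjusted p = 0.23) and -0.5 (SE 0.26, adjusted p = 0.339). Neither was called at these steps, and the days overlapped throughout.

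Sox3 had medians of 318.3 on day 5 (87.51 to 426.8) and 355.6 on day 6 (59.23 to 595.5). Sox11 had medians of 5367 (1640 to 8144) and 6273 (3222 to 10210), with changes of 0.33 from day 4 to day 5 (SE 0.14, adjusted p = 0.107) and 0.40 from day 5 to day 6 (SE 0.12, adjusted p = 0.048). Sox4 had medians of 2930 (1909 to 5033) and 3083 (2155 to 7218). From day 5 to day 6, 0 of 6 members were called by limma, edgeR or DESeq2, and 2 had an unadjusted p under 0.05 with each tool. Of all 13964 genes, limma called 119 (0.852%), edgeR 94 and DESeq2 899.

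Within each sorted type, the same comparison of day 6 with day 4 gave calls for Sox21 in pMN and p3. In p0-1 cells Sox21 stood at 126.6 to 486.7 on day 4 (median 283.4, n = 5) and 771.8 to 1086 on day 6 (median 899.8, n = 6). In p2 cells it stood at 382.8, 189.3 and 159.6 on day 4 and at 256.2 to 1291 on day 6 (median 709.9, n = 6), where 5 of 6 libraries lay above all of day 4. The log2 changes were 1.72 (SE 0.65, adjusted p = 0.181) and 1.34 (SE 0.78, adjusted p = 0.438), neither of them called.

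In pMN cells Sox21 stood at 0, 123.9, 73 and 119.7 on day 4 and at 366.9, 580, 804.8, 507.4 and 367 on day 6. All 5 later libraries were higher than the 4 earlier ones. The log2 change was 3.92 (SE 0.72, adjusted p = 0.000303, limma). It rests in part on the day 4 library at 0 (100 nM SAG, replicate 2), without which it was 2.17 (adjusted p = 0.0291), whereas without the other library of that group it was 5.66. It was also not called with edgeR (2.67, adjusted p = 0.0176) or when only the compared libraries were fitted (adjusted p = 0.189).

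In p3 cells Sox21 stood at 57.07, 217.1, 267.4 and 163.2 on day 4 and at 807.4, 1388, 954.5, 722.2 and 998.3 on day 6, again without overlap. The log2 change was 3.07 (SE 0.78, adjusted p = 0.00423, limma). The library at 57.07 was the only one of its group (100 nM SAG, replicate 3). It had the most reads of the series, 13484815, and the fewest genes detected, 9718. Without it the change was 2.13 (adjusted p = 0.151). Without either day 6 library of 500 nM SAG the change was 3.19 (replicate 1 left out, adjusted p = 0.011) or 2.95 (replicate 3 left out, adjusted p = 0.0207).

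The shares of all genes called between days 4 and 6 with limma were 1.42% in p0-1, 1.08% in p2, 1.9% in pMN and 7.78% in p3. In p3, 965 of the 1087 called genes were higher on day 6, so the rise of Sox21 there ran with a general shift. The median log2 change of all genes tested was 0.26 in p3, 0.09 in pMN, -0.3 in p2 and -0.07 in p0-1. The values of the members are not corrected for it. With limma, 0 members were called in p0-1 (4 with an unadjusted p under 0.05) and 0 in p2 (1). In p0-1, edgeR and DESeq2 also called 0, each with 4 under 0.05. In p2, edgeR called 0 (1 under 0.05) and DESeq2 called Sox11. Of all genes, DESeq2 called 605 in p0-1 and 862 in p2, and edgeR 87 and 92, against 198 and 151 with limma. A direct test of whether the change from day 4 to day 6 differed among the 4 types called 0 of 6 members with limma or edgeR, and 0 had an unadjusted p under 0.05 with either (2.81% of all genes were called with limma). The smallest p among the members was that of Sox21 (F = 2.7, adjusted p = 0.396, limma). The rise of Sox21 was therefore not shown to differ between cell types.

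Sox11 and Sox4 came nearest to a call in p2 and pMN. Sox11 stood at 4058, 3405 and 3696 in p2 on day 4 and at 6173 to 10210 on day 6 (median 9473, n = 6), all 6 above day 4 (log2 change 1.2, SE 0.3, adjusted p = 0.0145, limma). It was called with the replicate number as a block (1.38, adjusted p = 0.000422) and with DESeq2 (1.21, adjusted p = 0.000877). Sox4 stood at 2950, 2909, 2134 and 2943 in pMN on day 4 and at 3381, 3556, 3723, 4582 and 7218 on day 6, all 5 above day 4 (0.74, SE 0.23, adjusted p = 0.0572). Sox1 had a lower fitted level on day 6 in each type, and none of these changes was called. They were -1.48 in p0-1 (SE 0.54, adjusted p = 0.16), -1.25 in p2 (SE 0.65, adjusted p = 0.364), -0.58 in pMN (SE 0.6, adjusted p = 0.713) and -0.99 in p3 (SE 0.65, adjusted p = 0.353, limma). The days overlapped in each type.

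**Figure D3:**
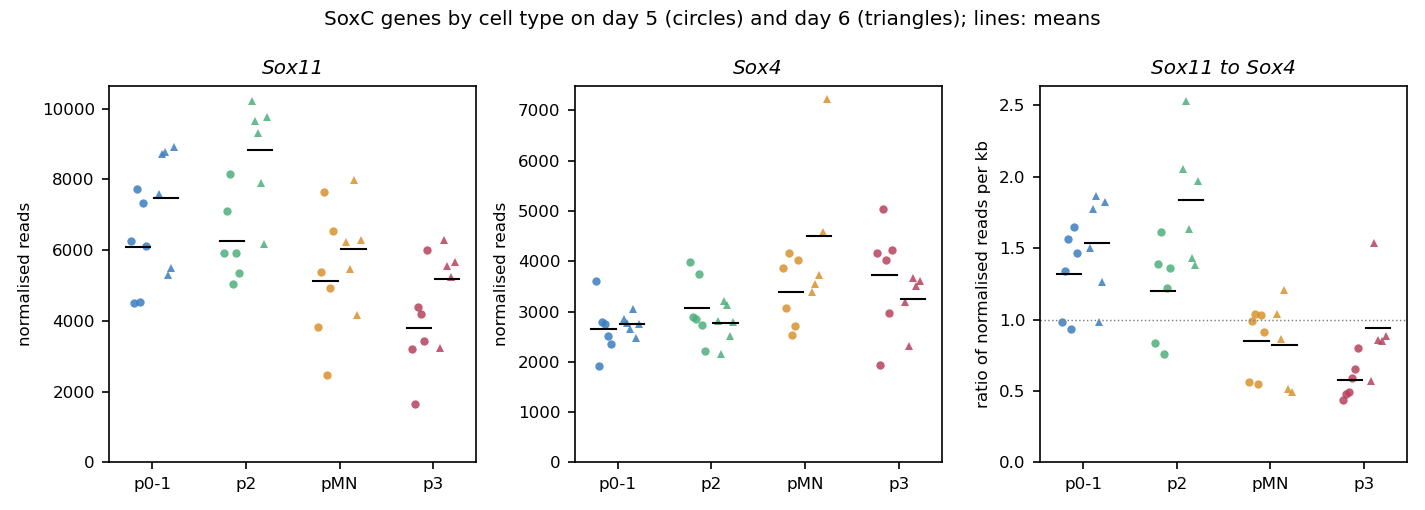
Normalised reads of Sox11 and of Sox4, and the ratio of Sox11 to Sox4 in normalised reads per kb, in each library by cell type (linear axes from 0, dotted line at a ratio of 1). Points are libraries of day 5 (circles) and day 6 (triangles), and lines mark the mean of a cell type on that day. Over both days, mean Sox11 is lowest in p3 (mean 4436) and highest in p2 (7537), while mean Sox4 is lowest in p0-1 (2707) and highest in pMN (3893).

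Between cell types on days 5 and 6, the SoxC pair showed the clearest differences, and they ran in different orders. Sox11 was lowest in p3, where it ran from 1640 through 4381 to 6275 (mean 4436 ± 1453, n = 11). It ran from 2464 through 5453 to 7970 in pMN (5535 ± 1643, n = 11), from 4514 through 6792 to 8910 in p0-1 (6771 ± 1616, n = 12) and from 5042 through 7500 to 10210 in p2 (7537 ± 1869, n = 12). All 11 p3 libraries lay below the median of p2 and below the median of p0-1, though the ranges overlapped.

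The log2 difference of Sox11 between p3 and p2 was -0.78 (SE 0.17, 95% confidence interval -1.12 to -0.44, adjusted p = 0.00314, limma). It passed the p threshold but, at 1.72-fold, not the 2-fold rule. Over the alternatives tried, its adjusted p ran from 0.000248 to 0.0183, and it was above 0.01 with array weights (0.0183), when only the compared libraries were fitted (0.0104) and without replicate 1 of day 6 p3 at 500 nM SAG (0.0115). Between p3 and p0-1 the difference was -0.63 (-0.97 to -0.29, adjusted p = 0.0214), and between p3 and pMN -0.3 (-0.66 to 0.05, adjusted p = 0.531). The order held within each day: means were 3807 in p3 against 6245 in p2 on day 5, and 5190 against 8829 on day 6. It also held at 100 nM SAG, which p2 and p3 share, with 4047 ± 1705 in p3 and 6688 ± 1801 in p2 (n = 6 each).

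Sox4 ran from 1909 through 2754 to 3606 in p0-1 (2707 ± 406.1, n = 12), from 2155 through 2836 to 3991 in p2 (2921 ± 543, n = 12), from 1943 through 3611 to 5033 in p3 (3512 ± 884.7, n = 11) and from 2541 through 3723 to 7218 in pMN (3893 ± 1262, n = 11). The types overlapped. The largest difference was that between pMN and p0-1, 0.53 (SE 0.15, 95% interval 0.24 to 0.83, adjusted p = 0.037, limma), followed by pMN against p2 (0.43, adjusted p = 0.21) and p3 against p0-1 (0.35, adjusted p = 0.205). On day 6 alone, all 5 pMN libraries lay above every p2 and every p0-1 library, and on day 5 the ranges overlapped. Day 6 alone was not tested, and the share of all genes that separate these libraries in the same way was not counted.

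In total, 0 of 36 pairs of member and cell type comparison were called by limma, edgeR or DESeq2, and 9, 8 and 9 of them had an unadjusted p under 0.05. With limma, the shares of all genes called were 0.322% for p2 against p0-1, 0.107% for pMN against p2 and 0.96% for pMN against p0-1. They were 0.695% for p3 against pMN, 1.27% for p3 against p2 and 1.43% for p3 against p0-1. DESeq2 called more, from 587 of 13964 genes for pMN against p2 to 986 for p3 against p2. The numbers with edgeR ran from 5 for pMN against p2 to 130 for p3 against p0-1. With each tool, a count of 0 among 6 members in a comparison is not a result about the members.

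Among the SoxB genes, Sox2 had the narrowest 95% intervals for a difference between types, which together covered -0.75 to 0.77 on the log2 scale. Those of Sox1 covered -1.27 to 0.97, of Sox3 -1.5 to 1.33 and of Sox21 -1.93 to 1.47. The width of an interval follows the spread within groups, which was lowest for Sox2 among the SoxB genes. Narrow intervals therefore do not show that the types were alike. Every type compared was also gated as SOX2-positive, and the part of that gate in the Sox2 values was not tested. The largest SoxB difference was that of Sox21 between pMN (86.88 to 804.8, median 507.4, n = 11) and p0-1 (371.1 to 1963, median 899.8, n = 12). All 11 pMN libraries lay below the median of p0-1, with a log2 difference of -1.03 (SE 0.45, adjusted p = 0.319). Sox3 differed most between p3 and pMN (-0.85, SE 0.33, adjusted p = 0.246).

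Genes on the lists for other cells also differed between these types. All 5 genes of the floor plate list were higher in p3 than in p2 and than in p0-1. Foxa2 (log2 difference from p2 8.88, SE 1.17), which is also expressed in p3 progenitors and so does not mark floor plate alone, ran from 232.5 through 906.5 to 3100 in p3. Shh (6.99, SE 0.82) ran from 0.8804 through 250.1 to 1335 there. Of the whole list, the summed level was 3190 to 21790 in p3, 1073 to 3733 in p2 and 474.5 to 2889 in p0-1. Of 6 tested proneural genes, which drive progenitors towards neurons, 2 were lower in p3 than in p2 and 2 were higher in pMN than in p0-1. These were Neurod1 (-3.95, SE 0.71) and Neurog2 (-2.75, SE 0.65) in the first case and Neurog2 (4.14, SE 0.65) and Nhlh1 (3.68, SE 0.84) in the second. Neurod1 and Neurog2 are named for their calls. Of 13 neuronal genes, 1 was lower in p3 than in p2, Dcx (-5.46, SE 1.07), and 3 were higher in pMN than in p0-1, among them Myt1 (3.97, SE 0.93). The neuronal list did not run in a single direction, as 1 gene was higher in p3 than in pMN and 1 was higher in p3 than in p0-1. Its median log2 difference was -0.59 for p3 against p2, -0.98 for p3 against pMN and 0.56 for p3 against p0-1. The calls of Neurog2 in p3 and of Nhlh1 and Myt1 in pMN were each lost without any 1 of 14, 13 and 34 libraries (adjusted p up to 0.0393, 0.0406 and 0.0567, limma). The summed level of the neuronal genes overlapped between types (766.4 to 5635 in p0-1, 1269 to 7889 in p2, 2119 to 10370 in pMN and 2176 to 6883 in p3). The part of other cells in the Sox11 and Sox4 differences was not tested.

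The balance of the SoxC pair differed in its median between cell types. Per kilobase of exon, the ratio of Sox11 to Sox4 on days 5 and 6 had a median of 1.485 in p0-1 (0.9325 to 1.863), 1.412 in p2 (0.7628 to 2.531), 0.9168 in pMN (0.4915 to 1.211) and 0.6511 in p3 (0.4367 to 1.534). In NMPs it was 0.4617 to 0.896. Sox11 thus exceeded Sox4 per kilobase in the median p0-1 and p2 library and not in the median pMN and p3 library. The ratios are given as a description, without a test. Values per kilobase, here and below, divide by the full annotated exon length (8451 bases for Sox11 and 4780 for Sox4). Coverage along the genes was not examined. The authors describe the RNA from these fixed cells as low in quality and limited in amount. Levels per kilobase of different members may therefore differ from their true relative abundance.

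Per kilobase, the order of the members' levels also changed with time. In NMPs the medians were 459.4 normalised reads per kilobase for Sox4, 282 for Sox11, 102.9 for Sox2, 28.95 for Sox3, 0.4355 for Sox21 and 0 for Sox1. On day 4 they were 591.7 for Sox4, 508.9 for Sox2, 466.5 for Sox11, 192 for Sox1, 87.75 for Sox3 and 45.96 for Sox21. The ranges of the first 3 overlapped (387.7 to 923.5, 240.3 to 681.9 and 269.4 to 757.8), so their order on day 4 was within the spread of the libraries. On day 6 the medians were 742.3 for Sox11, 645.1 for Sox4, 611.6 for Sox2, 216.5 for Sox21, 172.2 for Sox3 and 109.7 for Sox1, and the 3 highest overlapped again, as did the 3 lowest.

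Within SoxB1, Sox2 held most of the signal per kilobase in the median library of every day. Its share of the SoxB1 sum had a median of 78.93% in NMPs (73.23 to 89%), 65.36% on day 4 (49.6 to 74.09%), 74.13% on day 5 (65.9 to 85.3%) and 69.76% on day 6 (47.79 to 87.29%). Progenitors of days 4 to 6 were gated as SOX2-positive, and the part of that gate in the share of Sox2 was not tested. The share of Sox1 was highest on day 4, with a median of 22.62% (15.69 to 44.76%), against 12.69% on day 5 and 11.79% on day 6. The share of Sox3 was 21.07% in NMPs (11 to 26.77%), 11.26% on day 4, 12.47% on day 5 and 19.2% on day 6. The summed SoxC level was 4.182 to 12.14 times the summed SoxB1 level in NMPs and 0.8885 to 2.54 times on day 4, where the ratios did not overlap.

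**Figure D4:**
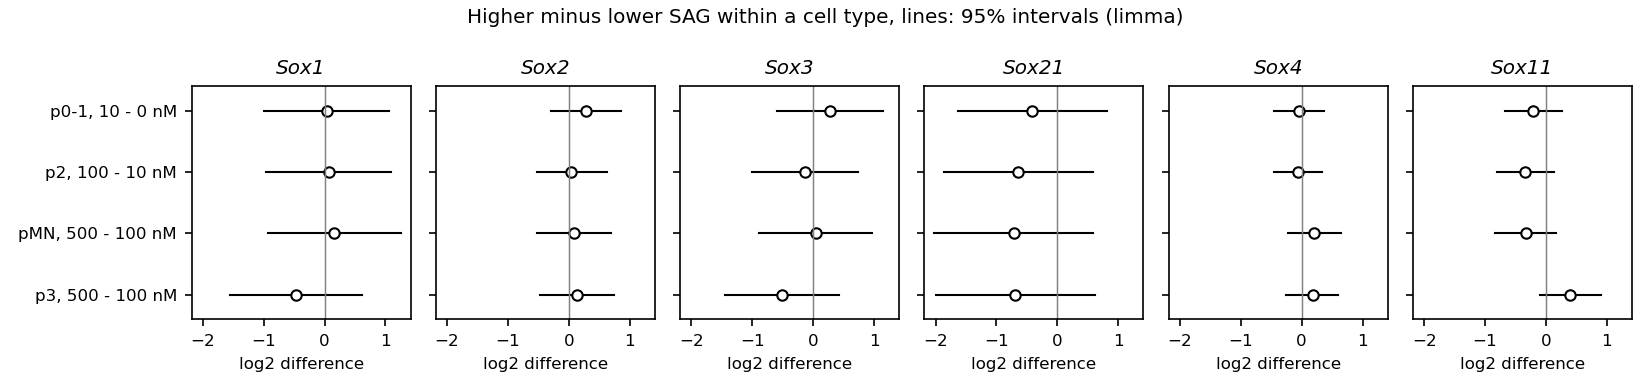
Fitted log2 differences of the 6 members between the higher and the lower SAG dose within each cell type over days 5 and 6 (points), with 95% confidence intervals (lines). Every interval spans 0, and none of the 24 differences is called.

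SAG dose within a sorted type was compared for 4 pairs of doses, and no member was called. Of 24 pairs of member and comparison, 0 were called and 0 had an unadjusted p under 0.05 with limma, with edgeR or with DESeq2. With limma, the shares of all genes called were 0.0143% in p0-1 (10 against 0 nM) and 0.0358% in p2 (100 against 10 nM). They were 0% in pMN and 0.0286% in p3 (500 against 100 nM in both). DESeq2 called far more, 424, 645, 442 and 665 of 13964 genes in the same order, and edgeR 1, 1, 0 and 0. With each tool these are too few for a count over 6 genes to say anything about the members. The 95% intervals of the differences covered, on the log2 scale, -0.53 to 0.85 for Sox2, -0.46 to 0.64 for Sox4, -0.83 to 0.9 for Sox11, -1.44 to 1.15 for Sox3, -1.56 to 1.25 for Sox1 and -2.02 to 0.82 for Sox21. A difference of over 2-fold lay outside the intervals for Sox2, Sox4 and Sox11 and inside them for Sox1, Sox3 and Sox21.

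Sox21 had the lower fitted level at the higher dose in all 4 types. In p0-1 it ran from 371.1 through 1022 to 1963 at 0 nM and from 513.7 through 808.3 to 1091 at 10 nM. In p2 it ran from 453.1 through 863 to 1291 at 10 nM and from 256.2 through 561 to 583.3 at 100 nM. In pMN it ran from 366.9 through 560.7 to 804.8 at 100 nM (n = 6) and stood at 86.88, 520.1, 382.8, 507.4 and 367 at 500 nM, and in p3 it ran from 397.5 through 880.9 to 1388 at 100 nM (n = 6) and stood at 322.9, 193.4, 377.9, 722.2 and 998.3 at 500 nM. The doses overlapped in each type. The log2 differences were -0.41, -0.64, -0.72 and -0.69 (SE 0.61 to 0.65, unadjusted p 0.274 to 0.504, limma), each within the spread between libraries.

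The other Sox genes put these changes in their family. Of 14 further Sox genes, 9 were tested. From day 3 to day 4, Sox9 (log2 change 3.64, SE 0.66, adjusted p = 9.81e-05) and Sox13 (1.99, SE 0.36, adjusted p = 7.78e-05) rose. Sox9, which acts in progenitors that later form glia, stood at 2.718, 9.001 and 75.23 in NMPs and at 61.59 to 291.7 on day 4. Neither was called between days 4 and 5 or between days 5 and 6. The call of Sox9 was lost without NMP replicate 3 (2.67, adjusted p = 0.0243, limma) and with edgeR (adjusted p = 0.0204).

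The SoxD genes Sox5 and Sox6 had their highest levels in p3. On days 5 and 6 Sox5 ran from 25.77 through 161.6 to 678.8 in p3 and was at 0 in 8 of 12 p0-1, 10 of 12 p2 and 4 of 11 pMN libraries, with highest values of 87.69, 109.4 and 86.57. It was higher in p3 than in p2 (6.49, SE 0.88, adjusted p = 1.32e-06), p0-1 (5.31, SE 0.88, adjusted p = 5.38e-05) and pMN (4.68, SE 0.91, adjusted p = 0.00131, limma). Sox6 ran from 116.7 through 476.1 to 1462 in p3 and from 0 through 59.64 to 241.8 in p2 (4.06, SE 1, adjusted p = 0.00993), and was not called against p0-1 or pMN. That call stood at the threshold and was lost in 6 of 10 alternatives and without any 1 of 46 libraries (adjusted p up to 0.0398). The call of Sox5 against pMN was lost in 4 of 10 alternatives. Sox5 also rose in p3 between days 4 and 6 (5.91, SE 1.54, adjusted p = 0.00551), a call lost without any 1 of 5 libraries of p3, at most without replicate 3 of day 4 at 100 nM SAG (4.61, adjusted p = 0.104), and with edgeR (adjusted p = 0.259). The fitted values of Sox5 and Sox6 depend on the pseudocount, because some libraries are at 0. Sox18 fell in pMN between days 4 and 6 (-6.14, SE 1.19, adjusted p = 0.000681), from 63.17 to 204.9 down to at most 16.2, and was not called with edgeR (adjusted p = 0.243), with DESeq2 (adjusted p = 0.282) or when only the compared libraries were fitted (adjusted p = 0.0452).

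Genes of neuronal differentiation were called at both later steps. From day 4 to day 5, 3 of 6 proneural genes rose, among them Neurog1 (log2 change 4.08, SE 0.47) and Nhlh1 (3.24, SE 0.68). The median change was 3.11 over the 6 proneural genes, 0.42 over the 6 members and 0.01 over all genes tested. Of 13 neuronal genes, 3 rose and 2 fell at that step. From day 5 to day 6, 3 of 13 neuronal genes rose, among them Dcx (3.36, SE 0.76) and Elavl3 (1.9, SE 0.35), and 0 fell. The summed level of the neuronal genes was 1326 to 2790 on day 4, 766.4 to 3739 on day 5 and 3461 to 10370 on day 6. Of 12 general neural progenitor genes, 2 rose from day 3 to day 4, Hes5 (7.96, SE 0.3) and Zbtb16 (4.07, SE 0.56), and Vim rose from day 4 to day 5 (1.26, SE 0.15). From day 5 to day 6 Fabp7 rose (4.24, SE 0.74) and Lin28a fell (-1.55, SE 0.18). Hes5 and Zbtb16 are named for their calls.

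Of the 3 non-coding genes that overlap a member, Sox1ot and Sox2ot rose at day 4, as Sox1 and Sox2 did. Sox1ot was at 0 in all NMP libraries, and Sox2ot at 0, 0 and 2.25. Both rose from day 3 to day 4 (fitted log2 changes 8.26, SE 0.98, and 5.37, SE 0.9, both dependent on the pseudocount). Sox2ot rose again from day 4 to day 5 (2.43, SE 0.48, adjusted p = 0.000255), a step at which Sox2 was not called. LOC105245869, opposite Sox21, was at 0, 2.48 or 16.88 in NMPs and from 0 through 2.035 to 157.5 on day 4, where 7 of 16 libraries were at 0.

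Across the 25 group means of log2(normalised reads + 1), the likeness of several pairs of members rested on the NMP group. Sox1 and Sox2 had a Pearson correlation of 0.79 over 25 groups and of -0.11 over the 24 groups without day 3. Sox1 and Sox21 went from 0.54 to -0.46. Sox2 and Sox21 kept 0.45 (0.75 with day 3), and Sox21 and Sox11 kept 0.47 (0.59). The SoxC pair had 0.09 with day 3 and -0.06 without it. The groups share days and a normalisation and may share dishes, so these values are descriptions.

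The genes most like each member over the 25 groups, among 10173 genes with a mean of at least 100, were as follows. For Sox1 they were Crabp2 (0.94), Nuak2 (0.93) and Crabp1 (0.91), of which Crabp1 and Crabp2 encode retinoic acid-binding proteins. For Sox2 they were Ednrb (0.91), an endothelin receptor gene, Mir219a-2 (0.9) and Fam181a (0.89). For Sox21 they included Fzd3 (0.91), a Wnt receptor gene, and Nr2f2 (0.89). For Sox11 they were Hoxb3 (0.86), Zfand5 (0.84) and Kcnq1ot1 (0.83). The closest genes were less close for Sox3 (Mir124-2hg 0.8, Epb41 0.79, Ptprn2 0.79) and Sox4 (Qsox1 0.75, Prrc2b 0.74, Ssbp3 0.74). All were picked by the correlation that is given, over groups that include the NMPs. Some had a large step at day 4, such as Crabp2 (mean 376.6 on day 3 and 8905 on day 4) and Ednrb (0 and 2793). Others had none, such as Kcnq1ot1 (13970 and 12120). Correlations without day 3 were not computed for these genes, so the part of the NMP group is unknown.

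The spread within groups bounds what could be detected. Its SD on the log2 scale was 0.34 for Sox4, 0.42 for Sox11, 0.5 for Sox2, 0.63 for Sox3, 0.87 for Sox1 and 1.07 for Sox21. Sox3 was steadier than most genes of like level, of which 2.8% had a smaller SD, and Sox11 was more variable than most, with 81.2% below it. For the other members this share was 30.4 to 51.4%.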

How the data were processed

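RNA was measured in 65 libraries of HM1 cells (25 groups), made with SMART-Seq HT and Nextera XT from fixed, sorted cells. The authors aligned reads with STAR within the nf-core rnaseq pipeline to mm10 with ERCC sequences, counted them over genes with featureCounts without duplicates, and left out libraries that failed quality control. The deposited values are a signal, normalised reads per gene, that is, counts divided by a size factor for each library. Of 834400 values above 0, 100.0% were whole multiples (tolerance 0.01) of the value of 1 read, so whole reads were recovered for the count-based alternatives. The deposited annotation (mm10) gave the coordinates, strands and exon overlaps of the members. It also gave the exon lengths by which values per kilobase were divided. Strand use in counting was not given in the sources used here.

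Log2(value + 1) of genes with a mean of at least 10 (13964 of 25239) was fitted with limma (3.58.1, R 4.3.3, trend) as 25 group means, with 40 residual and 7.4 prior degrees of freedom. Comparisons average over groups: days over all cell types and doses, cell types over days 5 and 6, and SAG within a type over days 5 and 6. Genes were called at a Benjamini-Hochberg adjusted p under 0.01 and a change of over 2-fold, and intervals are 95%. The fit was tested on simulated data first. The alternatives were edgeR (4.0.16), DESeq2 (1.42.0), other scalings, filters, weights and pseudocounts, the replicate number as a block, and each library left out. The labels do not say that libraries of a group came from separate cultures, so p-values measure the spread between libraries, which may be technical.

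The members and the gene lists were chosen with earlier results of these data known. Every member is described. Other Sox genes were named at a mean of at least 100 in a group of day and cell type, up to 4 genes of each other list by the size of their change from day 4 to day 6 (others are said to be named for their calls), and the 3 genes most correlated with each member. Values of some genes that this rule names are not reported here. Coding sequences were read from GENCODE vM21 and promoters from RefSeq (GRCm38.p6).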

Additional observations from a re-analysis of the deposited data

Results flagged for a closer look

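In 11 groups of day and cell type, each of the 6 members was checked for a highest or lowest library far from the others, 66 checks in all, of which 7 stood out. About 1 in 20 would by chance. In p0-1 cells on day 4, replicate 1 at 10 nM SAG was high for Sox1 (1962 normalised reads, next highest 874.4) and for Sox4 (4414, next highest 2348). In pMN cells on day 4, replicate 2 at 500 nM SAG was low for Sox4 (2134, next lowest 2909). Sox21 was high in replicate 1 at 10 nM SAG of p2 cells on day 5 (935.5, next 583) and in replicate 2 at 100 nM SAG of p3 cells on day 5 (1371, next 444.1). Sox2 was high in replicate 1 at 100 nM SAG of p2 cells on day 6 (2403, next 1422). Sox1 was high in replicate 2 at 100 nM SAG of p3 cells on day 6 (1453, next 476.2). Only the first of these libraries stood out for more than 1 member. None of the calls of the 6 members was lost when any 1 of these libraries was left out, and without replicate 2 at 100 nM SAG of p3 cells on day 5 Sox11 gained a call in p2 between days 4 and 6 (adjusted p = 0.00811, limma).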

How the results depend on the processing

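Over the 10 alternatives and the 65 libraries left out in turn, 5 of 18 pairs of member and day comparison were called (4 to 5 with a library left out, and 4 with edgeR and with only the compared libraries, where Sox3 was lost). Of the 24 pairs of day 4 and day 6 within a type, 2 were called, against 1 with edgeR, 1 with only the compared libraries, and 1 to 3 with a library left out. With the replicate block 3 were called, since Sox11 in p2 passed (1.38, adjusted p = 0.000422), and the block changed no other call of a member. DESeq2 also called 3. The labels do not say that a number marks a shared culture, and the numbers were not taken to pair the libraries. Of 186 same-numbered pairs of libraries in different groups, 20 had residuals correlated over 0.1 (median r 0.04, lowest -0.12). The median was -0.02 over 358 pairs with different numbers. However, 50 of 60 libraries were closest on average to their own number, out of at most 3 numbers. Libraries of 1 number thus shared some variation, and numbers may mark shared cultures. The main p-values and intervals do not allow for this. The test of a difference among types called 0 of 6, and 0 to 1 with a library left out: without replicate 3 of day 4 pMN at 100 nM SAG, Sox21 passed (F = 11.43, adjusted p = 0.000495), which left that group only its library at 0. No cell type or SAG pair was called in any setting. Sox1 in p3 at 500 against 100 nM SAG went from -0.47 to 0.02 without replicate 2 at 100 nM SAG of day 6, the highest of its values with a library left out (lowest -0.82, none called). Of 68 single values followed over the alternatives other than leaving a library out, 668 results kept their direction and side of the threshold, 4 fell below it, 2 rose above it and 0 changed sign. The pseudocount set the fitted change of Sox1 from day 3 to day 4 (9.62 with 1, 6.31 with 10, 12.77 with edgeR), and that of Sox21 in pMN from day 4 to day 6 (3.92 with 1, 3.02 with 10). The same settings were applied, after seeing the data, to 36 calls of named genes that are no members: 19 held in every setting, 17 were lost in at least 1 alternative, 6 of them also without a library, and 0 changed sign. Depth limits the NMP values of Sox1 and Sox21, at 0 to 9 reads.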
